A study of Mus musculus with 4 samples.

Results

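TNF-treated and untreated wildtype colonic organoids were compared within each cell class of the deposited annotation. A class entered where each of the wildtype libraries held at least 20 of its cells, and 6 of 11 deposited classes did: Progenitor.1, Progenitor.2, Progenitor.3, Secretory-Reg4-Spdef-Lyz1 (the secretory class below), Enteroendocrine and Mesenchyme-Ptges. They held 843 untreated and 1202 TNF-treated cells, 2045 of the 4058 cells of these libraries and of 6155 in the series. The organoids are gel-grown colonic cultures started from the distal colon of 16-week-old wildtype mice (Control in the deposited cell table). The untreated culture is labelled Vehicle. Passage 5 organoids of the other culture were kept in TNF, the inflammatory cytokine tumor necrosis factor, at 20 ng/ml between days 1 and 6. Both were dissociated on day 7 and depleted of apoptotic cells, and 2 further libraries came from Tnfr2-/- organoids, which lack TNF receptor 2. Each condition was 1 library, so no difference below has a replicate or a test, and all 6 class comparisons share the same 2 libraries.

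TNF signals through TNFR1 (encoded by Tnfrsf1a) and TNFR2 (Tnfrsf1b). Its best known route degrades IκBα, the product of Nfkbia, which lets NF-κB enter the nucleus and transcribe chemokines, survival factors and its own inhibitors, Nfkbia among them. Colonic epithelium renews from crypt progenitors into absorptive, goblet, deep secretory and enteroendocrine cells, while the fibroblasts beneath it supply matrix, growth factors and, in inflammation, chemokines.

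Levels are unique molecular identifiers (UMIs) summed over the cells of a class in a library, scaled to 1000000 UMIs of the same cells (CPM). A difference is log2(CPM + 1) with TNF minus that without, genes under 50 CPM in both libraries of a class were not considered, and "higher" or "lower" with TNF means past 2-fold. Ranges in brackets are 95% counting intervals, which cover neither culture nor mouse. Genes named outside the naming rule given with the methods were chosen after their values were seen.

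The epithelial and mesenchymal labels held against their markers. Epithelial markers summed to between 5292 and 26026 CPM in the 5 epithelial classes and to 55.5 and 201 CPM in Mesenchyme-Ptges. All 10 mesenchymal markers were detected in Mesenchyme-Ptges, summing to 22529 CPM untreated and 11610 CPM with TNF, against 9.14 to 30.7 CPM in the progenitor and secretory classes and 265 and 70.1 CPM in enteroendocrine cells. The name of Progenitor.2 went against its markers. Its 6 progenitor and cell cycle markers summed to 16.7 CPM untreated and 40.8 CPM with TNF, against 837 and 832 CPM in Progenitor.1, its 4 stem markers to 9.53 and 28.4 CPM, and its 7 absorptive markers to 3887 and 2058 CPM, against 449 and 44.4 CPM in Progenitor.1. It is called by its deposited name only. The 10 goblet and deep secretory markers summed to 55300.3 and 53798 CPM in the secretory class and the 8 enteroendocrine markers to 111830 and 110931 CPM in enteroendocrine cells. In Progenitor.3 the goblet and deep secretory markers summed to 5010 and 3827 CPM and the progenitor and cell cycle markers to 944 and 1288 CPM. The classes were unequal in size and depth. Progenitor.1 held 546 untreated and 335 treated cells of like depth (median 43626 and 44064 UMIs). Progenitor.2 held 62 and 273 cells with medians of 15574.5 and 39167 UMIs, and its median mitochondrial share was 9.70% untreated and 4.32% with TNF. Mesenchyme-Ptges held 34 and 304 cells with medians of 5755 and 48633 UMIs and mitochondrial shares of 16.7% and 2.79%. Median UMIs also differed in Progenitor.3 (7137 and 9570), the secretory class (34057 and 48833) and enteroendocrine cells (16386 and 26763). The part of depth and mitochondrial share in the differences of the classes was not tested. Cells with Y-linked UMIs and no Xist were a larger share of the treated epithelium and numbered 18 of 546 untreated and 52 of 335 treated cells in Progenitor.1 and 1 of 33 and 10 of 31 in enteroendocrine cells, and 0 in Mesenchyme-Ptges in both libraries.

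The number of genes past 2-fold differed between the classes. In Progenitor.1, 59 of 3036 considered genes were higher with TNF (1.94%) and 21 lower (0.692%). In Progenitor.2, 146 of 3062 were higher (4.77%) and 100 lower (3.27%). In Progenitor.3, 82 of 2618 were higher (3.13%) and 28 lower (1.07%), and with TMM or median-of-ratios scaling 57 were higher and 41 lower. In the secretory class, 73 of 2820 were higher (2.59%) and 12 lower (0.426%). In enteroendocrine cells, 75 of 3586 were higher (2.09%) and 29 lower (0.809%). Mesenchyme-Ptges had the most, with 488 of 3616 genes higher (13.5%) and 396 lower (11%), and it was also the class with the fewest untreated UMIs, 342542. The median difference over all considered genes was 0.00 in Progenitor.1, -0.01 in Progenitor.2, 0.15 in Progenitor.3, -0.02 in the secretory class, 0.03 in enteroendocrine cells and 0.24 in Mesenchyme-Ptges. Many of these genes reached 50 CPM in only the library where they were high, which by itself sets their direction: 39 of the 59 higher genes in Progenitor.1, 83 of 146 in Progenitor.2, 53 of 82 in Progenitor.3, 37 of 73 in the secretory class, 46 of 75 in enteroendocrine cells and 274 of 488 in Mesenchyme-Ptges were under it untreated. Of the lower genes, 19 of 21 in Progenitor.1, 62 of 100 in Progenitor.2 and 23 of 28 in Progenitor.3 were under 50 CPM with TNF. So were 5 of 12 in the secretory class, 18 of 29 in enteroendocrine cells and 252 of 396 in Mesenchyme-Ptges. List counts below are descriptions under the same filter, to be read beside the percentages over all considered genes given here.

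**Figure D1:**
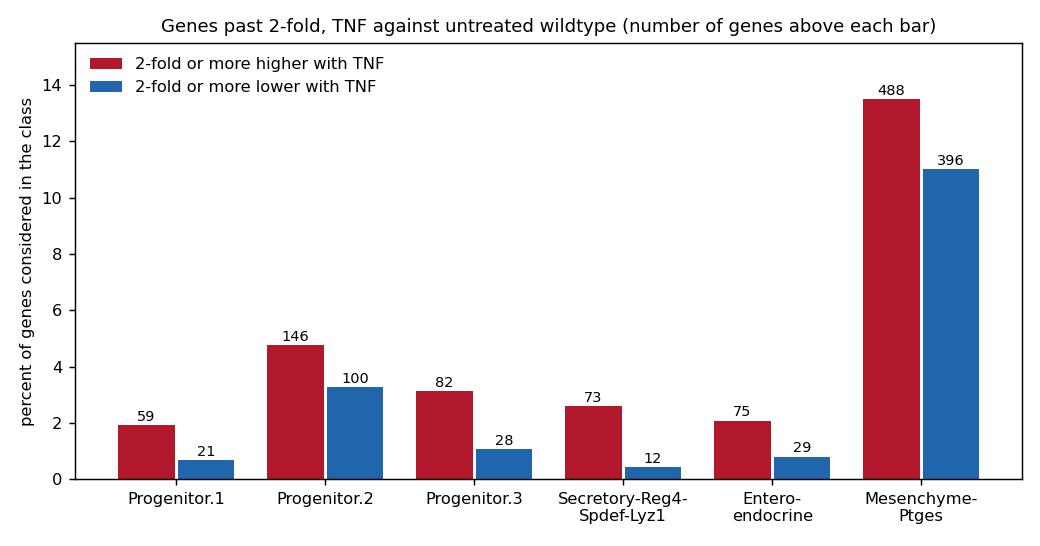
Percent of considered genes past 2-fold higher or lower with TNF in each class, with the number of genes above each bar. Mesenchyme-Ptges reaches 13.5% higher and 11% lower, and no epithelial class exceeds the 4.77% and 3.27% of Progenitor.2.

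Few genes differed in the same direction across the epithelium. Of 2402 genes considered in at least 4 of the 5 epithelial classes, 11 were higher with TNF in at least 4 of them (0.458%), and 0 were lower. They were Nfkbia, Pglyrp1, Cyba, AW112010, Ecscr, Cd47, Edn1, Cyr61, Adh1, Csad and Sdhaf1, and the first 4 were higher in all 5. Nfkbia was also higher in Mesenchyme-Ptges, which made it the 1 gene higher in all 6 classes among 1562 considered in all of them (0.064%). Against all untreated mesenchymal cells, a reference described below, its mesenchymal difference was 0.66, under 2-fold, and 0 genes were then higher in all 6. By contrast, 350 of these 1562 genes were past 2-fold in at least 1 class, and 315 of the 350 in exactly 1.

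Nfkbia (ENSMUSG00000021025), which encodes the NF-κB inhibitor IκBα, stood at 239 CPM (233 to 245) untreated and 512 CPM (502 to 523) with TNF in Progenitor.1, a ratio of 2.15 (2.08 to 2.22). The levels were 339 and 729.8 CPM in Progenitor.2, 103 and 291 CPM in Progenitor.3, 214 and 473 CPM in the secretory class, 156 and 368 CPM in enteroendocrine cells and 213 and 749.6 CPM in Mesenchyme-Ptges. The treated library was higher in every class, the counting intervals did not overlap in any, and the ratio was lowest in Progenitor.1 and Progenitor.2 (both 2.15) and highest in Mesenchyme-Ptges (3.52, 2.79 to 4.49), or 1.58 against all untreated mesenchyme. After each cell was thinned to 5000 UMIs, which left out shallower cells, Nfkbia was found in 55.9% of untreated (51.6 to 60.1) and 85.1% of treated (80.8 to 88.7) Progenitor.1 cells and in 15.9% (7.88 to 27.3) and 73.2% (64.0 to 81.1) of Progenitor.3 cells, with exact binomial intervals. Unthinned, these shares were 92.1% and 99.7%, and 37.9% and 80.4%.

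The receptors themselves were low. Tnfrsf1a was under 50 CPM in all epithelial classes (29.5 and 26.3 CPM in Progenitor.1) and stood at 163 and 82.2 CPM in Mesenchyme-Ptges, a difference of -0.98. Tnfrsf1b was under 50 CPM in every class, with 4.99 and 12.0 CPM in Progenitor.1 and 1.19 and 14.7 CPM in Progenitor.2. Tnf itself was higher with TNF in Progenitor.1, from 13.7 (12.4 to 15.2) to 63.8 CPM (60.2 to 67.6), and stood at 39.3 and 71.7 CPM in Progenitor.2. With cells thinned, 7.14% of untreated and 26.3% of treated Progenitor.1 cells held a Tnf UMI (unthinned 37.5% and 82.7%). In Mesenchyme-Ptges this share was 0 of 24 untreated cells, which allows up to 12.5% by the limit of 3 cells of the total, and 1.01% of treated cells.

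Of the list of NF-κB subunits and inhibitors, every considered gene past 2-fold was higher with TNF: 3 of 3 considered in Progenitor.1, 3 of 7 in Progenitor.2, 2 of 2 in Progenitor.3, 2 of 2 in the secretory class, 3 of 4 in enteroendocrine cells and 3 of 10 in Mesenchyme-Ptges. Of these higher genes 1, 2, 1, 0, 2 and 2 were under 50 CPM untreated. Over all considered genes of these classes, in the same order, 1.94%, 4.77%, 3.13%, 2.59%, 2.09% and 13.5% were higher. Tnip3, a partner of the deubiquitinase A20, was higher in 4 classes, and its levels were 91.5 and 217 CPM in Progenitor.1, 24.5 and 118 CPM in Progenitor.3, 91.6 and 209 CPM in the secretory class and 8.76 and 59.3 CPM in Mesenchyme-Ptges. Relb, a subunit of the noncanonical pathway, was higher in Progenitor.1 (15.3 and 58.0 CPM). Tnfaip3, which encodes A20, was higher in Progenitor.2 (42.3 and 96.0 CPM) and under 50 CPM in the other epithelial classes, with 108 and 174 CPM in Mesenchyme-Ptges.

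Promoters of some of these genes carried a motif of the NF-κB type. The RefSeq promoter windows (GRCm38.p6, 250 bases before to 50 after each start) were searched on both strands for GGGNNTTTCC and GGGNNTTCCC, which can overlap, as they do in Ccl20. The search left out the windows of a single chromosome, and all counts here are without them. A match was found in 1063 of 32851 windows (3.24%), in 1007 of 27025 genes (3.73%) and in 202 of 4348 considered genes (4.65%). It was also found in 3 of the 9 shared genes with a searched window and in 9 of 16 listed NF-κB genes. The 150 bases before the start are printed 5′ to 3′ on the gene's strand for 2 of the 3 shared genes, Nfkbia and Pglyrp1, and for Cxcl1 and Tnip3, which were higher in 3 and 4 classes, with the matches in capitals. The matches began 29 bases before the start in Nfkbia (chr12:55492648-55492797, minus strand), 93 before it in Pglyrp1 (chr7:18884540-18884689, plus strand), 89 and 71 before it in Cxcl1 (chr5:90891095-90891244, plus strand) and 54 before it in Tnip3 (chr6:65590248-65590397, plus strand). A match describes these letters and no binding was measured.
Nfkbia: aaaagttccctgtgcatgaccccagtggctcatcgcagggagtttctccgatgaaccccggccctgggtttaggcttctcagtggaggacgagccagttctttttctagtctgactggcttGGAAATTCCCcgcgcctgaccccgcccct
Pglyrp1: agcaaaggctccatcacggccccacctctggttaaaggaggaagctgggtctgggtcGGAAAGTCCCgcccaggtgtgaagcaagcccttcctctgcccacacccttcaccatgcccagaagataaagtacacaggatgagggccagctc
Cxcl1: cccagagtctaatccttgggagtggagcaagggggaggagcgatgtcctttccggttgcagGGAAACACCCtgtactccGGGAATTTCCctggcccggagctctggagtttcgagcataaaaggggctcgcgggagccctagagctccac
Tnip3: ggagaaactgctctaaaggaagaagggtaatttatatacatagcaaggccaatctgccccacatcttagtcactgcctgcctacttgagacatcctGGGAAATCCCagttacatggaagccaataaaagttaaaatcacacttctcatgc

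Pglyrp1 (ENSMUSG00000030413), which encodes a secreted protein that binds bacterial peptidoglycan, was higher in every epithelial class. Its level was 1309 CPM untreated and 3686 CPM with TNF in Progenitor.1, 1774 and 9795 CPM in Progenitor.2, 932 and 2811 CPM in Progenitor.3, 1086 and 3678 CPM in the secretory class and 149 and 467 CPM in enteroendocrine cells. The ratio was highest in Progenitor.2 (5.52, 5.33 to 5.73) and lowest in Progenitor.1 (2.82, 2.78 to 2.85). Mesenchyme-Ptges held 0 untreated UMIs and 14.7 CPM with TNF.

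Cyba (ENSMUSG00000006519) encodes p22phox, the shared membrane subunit of NADPH oxidases. Its levels were 200.0 and 965 CPM in Progenitor.1, 434 and 893 CPM in Progenitor.2, 117 and 808 CPM in Progenitor.3, 79.3 and 542 CPM in the secretory class and 157 and 545 CPM in enteroendocrine cells. In fold, though not in CPM, the treated levels of the epithelial classes lay closer together than the untreated ones. The ratio of treated to untreated ran from 2.06 (1.91 to 2.22) in Progenitor.2 to 6.93 (5.91 to 8.18) in Progenitor.3. In Mesenchyme-Ptges Cyba stood at 391 CPM (328 to 463) and 421 CPM (411 to 432), and these intervals overlap.

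Nox1, the colonic oxidase that p22phox serves, was under 50 CPM untreated in every class and passed it with TNF in 3: 40.0 and 226 CPM in Progenitor.1, 23.9 and 153 CPM in Progenitor.3 and 13.7 and 67.6 CPM in the secretory class. Nos2 (ENSMUSG00000020826), the inducible nitric oxide synthase, was low in every untreated class. It stood at 0.869 CPM (0.556 to 1.29) and 82.4 CPM (78.2 to 86.6) in Progenitor.1 and at 10.7 CPM (6.35 to 16.9) and 291 CPM (282 to 301) in Progenitor.2. The secretory class held 3.17 and 49.6 CPM, just under the level minimum. Progenitor.3 held 0 untreated UMIs and 29.2 CPM with TNF, at least 14.3-fold higher against a floor of 3 counts in the untreated library, and Mesenchyme-Ptges held 0 untreated UMIs and 16.0 CPM, at least 1.83-fold higher. With cells thinned, a Nos2 UMI was found in 0.366% (0.0444 to 1.32) of untreated and 26.0% (21.4 to 31.0) of treated Progenitor.1 cells, 5.36% (1.12 to 14.9) and 58.1% (52.0 to 64.1) of Progenitor.2 cells, 1.39% and 12.3% of secretory cells, and 4.39% of treated Mesenchyme-Ptges cells. Unthinned, the shares were 2.93% and 71.9%, 6.45% and 84.2%, 1.37% and 43.2%, and 14.8%. The share of treated cells was largest in Progenitor.2 by either count. In enteroendocrine cells the thinned share was 0 of 31 and 0 of 29 cells, which allows up to 9.68% and 10.3% by the limit of 3 cells of the total. Over the list of nitric oxide and oxidant enzymes, 3 of 9 genes were higher in Progenitor.1, 3 of 8 in Progenitor.2, 2 of 7 in Progenitor.3, 2 of 7 in the secretory class, 1 of 5 in enteroendocrine cells and 4 of 7 in Mesenchyme-Ptges, where Sod2 (219 and 716 CPM), a mitochondrial superoxide dismutase, was higher and Sod3 (64.2 and 12.5 CPM) was lower. Over all considered genes of these classes, in the same order, 1.94%, 4.77%, 3.13%, 2.59%, 2.09% and 13.5% were higher. Against all untreated mesenchyme 1 of 7 was higher and Sod2 was under 2-fold (0.28, from 589.6 CPM). The Sod2 differences lay between -0.46 and -0.10 in the 5 epithelial classes.

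**Figure D2:**
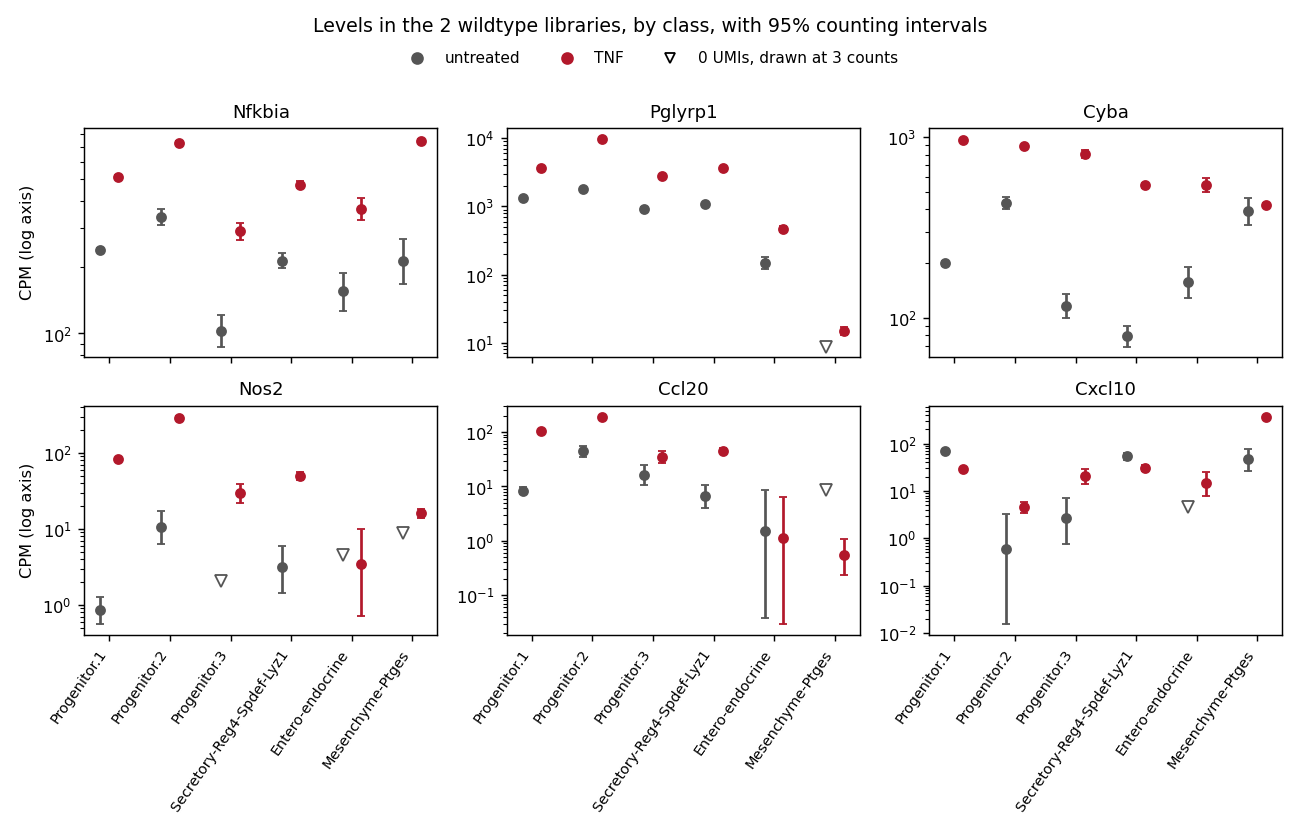
CPM on log axes for Nfkbia, Pglyrp1, Cyba, Nos2, Ccl20 and Cxcl10 in the untreated (grey) and TNF-treated (red) library of each class, with 95% counting intervals and open triangles for 0 UMIs drawn at 3 counts. The red points lie above the grey in every class for Nfkbia, Cyba is level only in Mesenchyme-Ptges, and Cxcl10 is lower with TNF in Progenitor.1 and the secretory class and higher in Mesenchyme-Ptges.

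The remaining shared genes were of varied function. AW112010 was at 25.8 and 126 CPM in Progenitor.1, 149 and 383 CPM in Progenitor.2, 17.0 and 185 CPM in Progenitor.3, 168 and 527 CPM in the secretory class and 19.8 and 82.8 CPM in enteroendocrine cells. Cd47, the ligand that restrains phagocytosis, was at 135 and 315 CPM in Progenitor.1 and 151 and 471 CPM in Progenitor.2, and in enteroendocrine cells its difference was 0.82. Edn1, which encodes the precursor of endothelin-1, was at 274 and 712 CPM in Progenitor.1 and 12.2 and 66.7 CPM in enteroendocrine cells, and in Progenitor.3 at 109.7 and 99.98 CPM. Progenitor.3 was also the epithelial class in which Cyr61, a matricellular protein gene, was not higher (19.1 and 14.6 CPM, against 31.6 and 105 CPM in Progenitor.2). Adh1, an alcohol dehydrogenase gene, was considered in 4 epithelial classes and higher in each, from 30.7 and 82.4 CPM in Progenitor.3 to 491 and 1319.6 CPM in enteroendocrine cells. Csad and Sdhaf1 sat near the 2-fold line, with Csad at a difference of 1.00 in Progenitor.3 and Sdhaf1 between 1.02 and 1.14 in the 4 classes where it was higher. These 2 genes no longer met the rule under a pseudocount of 10 CPM, under TMM or median-of-ratios scaling, over cells with at least 5000 UMIs and under 10% mitochondrial UMIs, with the mean over cells or with thinned cells, and the other 9 met it under the first 4 of these. Among cells with Xist and no Y-linked UMIs, 10 of the 11 genes were higher in Progenitor.1, 10 in Progenitor.2 and 11 in the secretory class, against 11, 10 and 11 over all cells.

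Chemokine genes were higher with TNF in 5 of the 6 classes, and 0 were considered in enteroendocrine cells. Of the considered members, 4 of 6 were higher and 1 lower in Progenitor.1, 2 of 4 higher in Progenitor.2, 1 of 3 in Progenitor.3, 2 of 5 in the secretory class, and 6 of 9 higher and 3 lower in Mesenchyme-Ptges. Of the higher genes 3, 2, 1, 2 and 1 in these classes were under 50 CPM untreated, and the higher genes of Progenitor.2, Progenitor.3 and the secretory class were all among those of Progenitor.1. Over all considered genes 1.94%, 4.77%, 3.13%, 2.59% and 13.5% were higher in these classes, and 0.692% and 11% lower in Progenitor.1 and Mesenchyme-Ptges. Ccl20, which attracts CCR6-bearing lymphocytes, stood at 8.43 CPM (7.38 to 9.59) and 106 CPM (101 to 111) in Progenitor.1 and at 44.1 CPM (34.6 to 55.3) and 186 CPM (179 to 194) in Progenitor.2. It was 6.69 and 45.7 CPM in the secretory class, and Mesenchyme-Ptges held 0 untreated UMIs and 0.547 CPM with TNF. Among the treated classes Ccl20 was highest in Progenitor.2. With thinned cells it was found in 27.8% of Progenitor.2 cells, 22.99% of Progenitor.1 cells and 0 of 296 Mesenchyme-Ptges cells. By the limit of 3 cells of the total, 0 of 296 allows up to 1.01%. Unthinned, these shares were 43.6%, 52.2% and 1.64%.

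The neutrophil chemokine genes Cxcl1 and Cxcl2 were higher in both compartments but not in every epithelial class. Cxcl1 was at 21.5 and 60.2 CPM in Progenitor.1, 33.4 and 68.2 CPM in Progenitor.2 and 126 and 419 CPM in Mesenchyme-Ptges, and in Progenitor.2 its difference of 1.01 was -0.22 with thinned cells. Cxcl2 was higher in Progenitor.1 (51.8 and 137 CPM), the secretory class (21.8 and 52.7 CPM) and Mesenchyme-Ptges (70.1 and 676 CPM), and stood at 308 and 171 CPM in Progenitor.2, a difference of -0.84. Cxcl16, a membrane-bound chemokine gene, was higher in Progenitor.1 (36.9 and 114 CPM), Progenitor.3 (8.86 and 50.3 CPM), the secretory class (8.10 and 68.2 CPM) and Mesenchyme-Ptges (52.5 and 165 CPM) and was level in Progenitor.2 (341 and 382 CPM).

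Ccl2, the monocyte chemokine gene, stood at 2446 CPM (2284 to 2618) untreated and 9927 CPM (9876 to 9978) with TNF in Mesenchyme-Ptges. The epithelial classes held between 0 and 2.04 CPM untreated and between 11.3 and 31.6 CPM with TNF, at most 0.318% of the mesenchymal level. Mmp3 and Lcn2, other genes of this mesenchyme, stood in treated Progenitor.1 at 0.0869% and 0.196% of their mesenchymal level, and no expression is read from the epithelial Ccl2 values. C3 and Cp, in contrast, were at 11.1% and 47.9% of their mesenchymal level there. Within the mesenchyme Ccl7, a relative of Ccl2, was higher (464 and 1239 CPM), while Ccl8 (1597 and 297 CPM), Ccl11 (219 and 10.54 CPM) and Cxcl5 (423 and 173 CPM) were lower.

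Interferon-stimulated genes had no common direction. In Progenitor.1, 0 of 4 considered were higher and 1 lower, to under 50 CPM with TNF. In Progenitor.2, 0 of 10 were higher and 3 lower, with a list median of -0.58. Of the 3, 2 were under 50 CPM with TNF, and 3.27% of all its considered genes were lower. In Mesenchyme-Ptges, 7 of 19 were higher and 0 lower, with a median of 0.66, beside 13.5% higher over all its considered genes. Of the 7, 6 were under 50 CPM untreated. Against all untreated mesenchyme 1 of 21 was higher and 2 lower, with a median of -0.02. Isg15 (ENSMUSG00000035692), a ubiquitin-like protein gene, was lower in Progenitor.1 (58.6 and 13.3 CPM, ratio 0.227, 0.198 to 0.260) and Progenitor.2 (201 and 61.1 CPM) and higher in Mesenchyme-Ptges (87.6 and 301 CPM). In all untreated mesenchyme it stood at 346 CPM. Cxcl10 (ENSMUSG00000034855), which encodes a T cell chemokine, was lower in Progenitor.1, at 70.3 CPM (67.2 to 73.5) untreated and 28.6 CPM (26.2 to 31.2) with TNF, and higher in Mesenchyme-Ptges, at 46.7 CPM (26.7 to 75.9) and 366 CPM (356 to 376). The share of thinned Progenitor.1 cells with a Cxcl10 UMI went the other way from the level, 7.33% untreated and 9.85% with TNF (unthinned 20.5% and 33.1%), and no order is read from it.

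Between 9 and 11 genes of MHC class I antigen presentation were considered in each epithelial class. Of these 0 to 2 were higher and 0 lower. The most were 2 of 11 in enteroendocrine cells, beside 2.09% higher over all its considered genes. The list median was highest in enteroendocrine cells, at 0.53. B2m, the MHC class I light chain gene, was at 104 and 331 CPM in enteroendocrine cells (1.67), 134 and 295 CPM in Progenitor.3 (1.14) and 163 and 326 CPM in Progenitor.1, just under 2-fold. Tapbp, which loads peptides onto MHC class I, was at 48.8 and 131 CPM in enteroendocrine cells. In Mesenchyme-Ptges 5 of 20 were higher and 1 lower, beside 13.5% and 11% over all its considered genes. The immunoproteasome genes Psmb8 and Psmb10 were at 105 and 265 CPM and at 58.4 and 178 CPM there.

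Several lists served as checks on culture and handling. Dissociation stress genes such as immediate-early factors had 3 of 15 higher in Progenitor.1 (median 0.59), 5 of 18 higher and 3 lower in Progenitor.2 (0.72), 2 of 12 higher in Progenitor.3 (0.31), 7 of 16 in the secretory class (0.94), 1 of 15 in enteroendocrine cells (0.55), and 7 of 15 higher and 1 lower in Mesenchyme-Ptges (0.99). Over all considered genes of these classes, in the same order, 1.94%, 4.77%, 3.13%, 2.59%, 2.09% and 13.5% were higher. In the secretory class Atf3 stood at 238 and 692 CPM and Dusp1 at 40.5 and 143 CPM. The part of handling in these differences was not tested. Of the nuclear genes for mitochondrial electron transport, 0 of 41 or 42 were past 2-fold in each epithelial class and 4 of 41 higher in Mesenchyme-Ptges. Of the barrier genes, 1 of 10 was higher in Progenitor.1 and 0 were past 2-fold in the other classes.

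**Figure D3:**
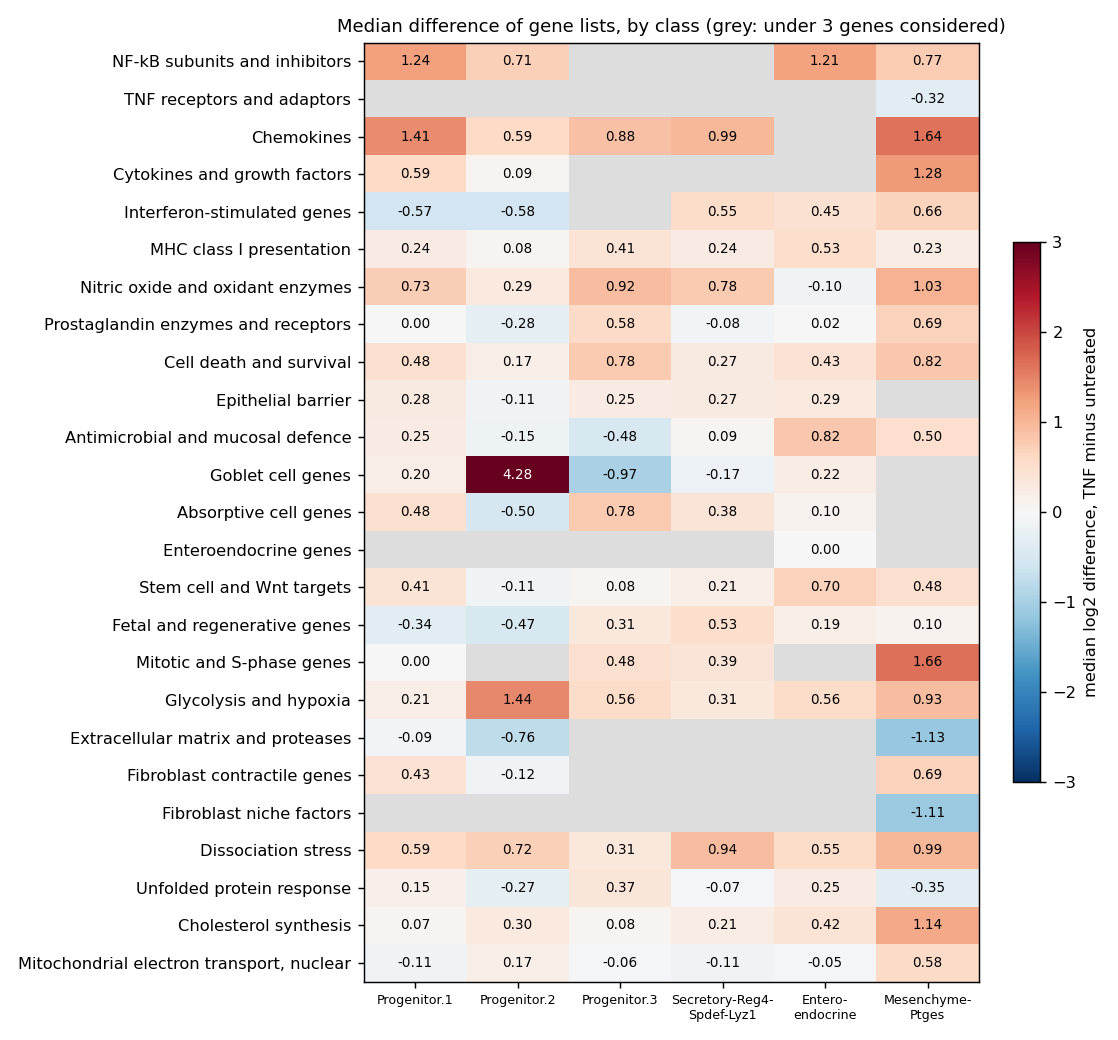
Median log2 difference, TNF minus untreated, over the considered genes of 25 lists in each class, with colours capped at 3 and grey where under 3 genes were considered. Goblet cell genes in Progenitor.2 (4.28) and mitotic genes in Mesenchyme-Ptges (1.66) stand out, in both of which every higher gene was under 50 CPM untreated, as do glycolysis and hypoxia genes in Progenitor.2 (1.44), and the matrix and niche lists of Mesenchyme-Ptges are negative (-1.13 and -1.11).

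Progenitor.1, the largest class, had no gene that was past 2-fold there and within 0.5 of 0 in every other class where it was considered (0 of 2567 in either direction). Its higher genes included defence genes: C3, the central complement component, at 1.66 and 55.03 CPM, Ang4, an antimicrobial ribonuclease, at 4.74 and 65.5 CPM, Slpi, a protease inhibitor of mucosal secretions, at 8.11 and 57.3 CPM, and Cp, which encodes the copper ferroxidase ceruloplasmin, at 24.2 and 188 CPM. Each was under 50 CPM untreated, so the filter fixed its direction. Of 8 considered antimicrobial and mucosal defence genes 3 were higher, all 3 from under 50 CPM untreated, and 1 was lower, to under it with TNF. Guca2b, the uroguanylin gene, was also higher (14.0 and 111 CPM). Of 18 considered fetal and regenerative genes 4 were lower, among them Spp1 at 205 and 27.3 CPM, Clu at 499 and 115 CPM and Msln at 72.2 and 28.2 CPM, and 1, Cyr61, was higher. Of the 4 lower genes 3 were under 50 CPM with TNF, and over all considered genes 0.692% were lower. Krt6a and Krt14, keratins of stressed and basal epithelium, were at 79.7 and 5.64 CPM and 169 and 27.1 CPM. Car1, a carbonic anhydrase gene of mature colonocytes, was at 395 CPM (388 to 403) and 21.0 CPM (18.9 to 23.2). Lyz1, the lysozyme gene, was at 68.0 and 14.8 CPM. Cell cycle genes were level: 0 of 22 mitotic and S-phase genes were past 2-fold and their median was 0.00. Hpgd, which breaks down prostaglandins, was lower in Progenitor.1 (55.01 and 20.3 CPM) and Progenitor.2 (190.0 and 55.03 CPM) and under 50 CPM in the other classes.

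Progenitor.2 had the most epithelial genes past 2-fold and the most that met the class-specific rule, 18 higher (0.781% of 2306) and 8 lower (0.347%). The specific genes that were higher included Gpi1, a glycolytic isomerase gene (192 and 609 CPM), Ndrg2 (66.7 and 218 CPM), Spink4, a goblet cell inhibitor gene (16.1 and 432 CPM), and Hnf4a, a transcription factor of differentiated enterocytes (66.7 and 144 CPM). Glycolysis and hypoxia genes were higher as a group, 20 of 27 with 0 lower and a median of 1.44, beside -0.01 over all genes, and 6 of the 20 were under 50 CPM untreated. Bnip3, a mitophagy receptor gene, was at 35.7 CPM (27.3 to 46.0) and 344 CPM (334 to 354), the prolyl hydroxylase gene Egln3 at 51.8 and 467 CPM, the lactate carrier gene Slc16a3 at 20.2 and 114 CPM and Ldha at 879 and 2102 CPM. In Progenitor.1 the same list had 0 of 20 past 2-fold and a median of 0.21.

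Secretory and guanylin genes were the other large group in Progenitor.2. Guca2b (ENSMUSG00000032978) stood at 1.79 CPM (0.368 to 5.22) untreated and 405 CPM (394 to 416) with TNF, from 3 UMIs in the untreated library, a ratio of 227 (77.5 to 1099), and 72.9% of treated cells held it. Guca2a, the guanylin gene, was at 3.57 and 139 CPM. Of 22 goblet cell genes 8 were considered and 6 were higher, and since all 6 were under 50 CPM untreated the filter fixed their direction. Tff3 was at 33.4 and 511 CPM, Zg16 at 2.98 and 122 CPM, Fcgbp at 1.19 and 62.4 CPM and Muc2 at 0.596 and 52.3 CPM. For Muc2, 32.5% of the treated UMIs lay in 1 cell, and 15.0% of treated Progenitor.2 cells (median 39167 UMIs) against 10.9% of treated Mesenchyme-Ptges cells (median 48633 UMIs) held a UMI, or 5.56% and 1.35% with cells thinned. The treated levels of Muc2, Spink4, Tff3 and Zg16 were 2.28%, 2.04%, 3.00% and 6.69% of those in the secretory class of the same library, that of Guca2b was 129.6%, and the untreated Muc2 level was 0.0301%. In Mesenchyme-Ptges of the treated library Muc2 stood at 3.08 CPM and Guca2b at 0.821 CPM. The depth and mitochondrial share of Progenitor.2, given above, differed between the libraries as well, and their part in its gene groups was not tested.

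Lower genes of Progenitor.2 included the iron storage gene Fth1, at 17601 and 3894 CPM, the small heat shock gene Hspb1, at 1159.5 and 198 CPM, and Hsp90aa1, at 1157 and 372 CPM. The prolactin family genes Prl2c3 (734 and 18.1 CPM), Prl2c2 (466 and 22.5 CPM) and Prl2a1 (167 and 4.41 CPM) were lower together. Prl2c3 and Prl2c2 are near-identical copies whose reads may be split between them. Of 17 absorptive genes 5 were lower and 3 higher, with Car4, a surface carbonic anhydrase gene, at 66.7 and 0.315 CPM and the chloride exchanger gene Slc26a3 at 90.5 and 21.4 CPM. Of the 5 lower genes 3 were under 50 CPM with TNF, and of the 3 higher 2 were under it untreated. Over all its considered genes 3.27% were lower and 4.77% higher. Mal, a raft protein gene, was at 1191 and 173 CPM, the mesothelin gene Msln at 627 and 164 CPM, Timp2 at 946 and 185 CPM and Il18, an epithelial cytokine gene, at 169.7 and 49.3 CPM. Over cells with at least 5000 UMIs and under 10% mitochondrial UMIs, 226 genes were higher and 128 lower, and 135 of the 146 and 87 of the 100 were among them. With the mean over cells 93 of the 146 and 53 of the 100 were past 2-fold the same way, and with thinned cells 93 and 56.

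Progenitor.3 had defence and cell death genes among those past 2-fold, the defence genes in both directions. Its higher genes included Cp (4.09 and 63.7 CPM), Nox1, Tnip3, Cxcl16 and the caspase substrate gene Gsdmd (23.9 and 62.0 CPM), with Casp8 at 42.9 and 119.9 CPM and Casp1 at 32.0 and 75.4 CPM, so that 3 of 7 cell death and survival genes were higher and 0 lower, all 3 from under 50 CPM untreated. Ifitm3 and Ifitm2, antiviral membrane protein genes, were at 100.2 and 405 CPM and 179 and 467 CPM. Its lower genes included 3 of 6 considered goblet cell genes and 2 of 5 absorptive genes, of which 2 others were higher. Of these lower genes 2 of the 3 and 2 of the 2 were under 50 CPM with TNF, beside 1.07% lower over all considered genes. Among the 28 were the membrane mucin gene Muc3 at 190.2 CPM (168 to 214) and 12.9 CPM (8.06 to 19.5), lysozyme Lyz1 at 338 and 37.4 CPM, the lectin gene Zg16 at 183 and 18.1 CPM, the mucus protein gene Fcgbp at 158 and 22.2 CPM and the cytochrome gene Cyp2c55 at 155 and 11.1 CPM. Of 10 antimicrobial and mucosal defence genes 4 were lower and 2 higher. All 4 were under 50 CPM with TNF, and 1 of the 2 was under it untreated. Guca2b was higher (21.1 and 98.8 CPM). Ginm1, Trappc10 and Sptbn1 met the class-specific rule and were lower (0.132% of 2269), and 0 genes met it in the higher direction. Most lower genes of Progenitor.3 depended on how cells were weighted: 5 of the 28 were also lower with cells thinned to 5000 UMIs and 7 of 28 with the mean over cells, and 45 and 42 of the 82 higher genes were also higher. Lyz1 kept a difference of -3.91 with thinned cells, that of Muc3 was -0.52, and 79.9% of the untreated Zg16 UMIs lay in 1 cell. Muc2 stood at 172 and 67.8 CPM in the sums and was found in 14.3% of thinned cells in both libraries (9 of 63 and 16 of 112).

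In the secretory class, deep crypt secretory and goblet cell products were found on both sides. Higher were Ang4, from 1012 CPM (976 to 1050.1) to 4498 CPM (4447 to 4550.2), the matrilysin gene Mmp7, from 332 to 1094 CPM, the defensin gene Defa24, from 137 to 390.3 CPM, and the mucus protease gene Clca1, from 3.87 to 51.8 CPM. Scgb1b20, a secretoglobin gene, had 0 UMIs untreated and 99.0 CPM with TNF, at least 93.7-fold higher, and its relative Scgb1b7 stood at 1.06 and 72.5 CPM, where shared reads cannot be told apart. Lower were Zg16 (6144 and 1823 CPM), the pentraxin gene Mptx1 (1722 and 560.3 CPM), Reg4 (2605 and 1021 CPM) and the kallikrein gene Klk1 (523 and 228 CPM). Of 11 antimicrobial and mucosal defence genes 1 was higher and 3 lower, and of 21 goblet cell genes 1 higher and 2 lower, with a median of -0.17, and Muc2 was level (1979 and 2299.8 CPM). The growth factor gene Areg was at 253 and 663 CPM and Gsdmd at 34.5 and 88.3 CPM. Lgals3bp was the 1 gene that met the class-specific rule (32.1 and 76.4 CPM, 0.0405% of 2472). In the untreated library 65.4% of the Zg16 UMIs lay in 1 cell, and without the leading cell of each library the difference was -1.17 in place of -1.75. Chgb, an enteroendocrine granule gene, stood at 294 and 5.42 CPM, but 99.9% of its untreated UMIs lay in 1 cell. A further 246 treated cells, and 0 untreated, were annotated as Secretory-Reg4-Ang4 (median 1957.5 UMIs) and are outside these values. Reg4 stood at 2630 CPM and Lyz1 at 21.6 CPM in them, against 1021 and 2258 CPM in the treated cells compared.

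Enteroendocrine cells were few, 33 untreated and 31 treated, and several of their hormone sums rested on few cells. Gcg, the proglucagon gene, was at 5606 CPM untreated and 401 CPM with TNF, and 6 of 33 and 4 of 31 cells held at least 10 of its UMIs, with 55.2% of the untreated UMIs in 1 cell. Cck was at 584 and 3637 CPM, 6 of 33 and 10 of 31 cells held 10 UMIs, and 65.7% of the treated UMIs lay in 1 cell. For Ghrl, the ghrelin gene, the levels were 195 and 1159 CPM and the cells 3 and 3. Pyy, the peptide YY gene and the leading hormone in 11 untreated and 13 treated cells, was level (68418 and 62479 CPM), as were Chga (7068 and 6989 CPM) and the serotonin enzyme gene Tph1 (768 and 1089.7 CPM). The sum of Insl5, a colonic L cell hormone gene, was lower (13371 and 6523 CPM), while 7 of 33 and 7 of 31 cells held 10 UMIs. In 1 cell lay 32.6% of its untreated and in 1 cell 35.4% of its treated UMIs. Of 26 considered enteroendocrine genes 2 were higher and 4 lower, with a median of 0.00. Neurog3, the transcription factor that starts the lineage, was lower (212 and 71.3 CPM), as was the cell cycle inhibitor gene Cdkn1a (364 and 107 CPM). The mitotic gene Mki67 had 0 untreated UMIs and 51.7 CPM with TNF, all in 1 cell. The class-specific rule was met by 0.126% of 2383 genes in the higher direction, among them Pigr and Upf3b, and by 0.0839% in the lower, Card19 and Acaa2. For Pigr, the carrier of secreted immunoglobulin A, 67.8% of treated UMIs lay in 1 cell, without which, and without the leading untreated cell, its difference of 1.54 was 0.67.

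Mesenchyme-Ptges differed most, and 175 genes were specific to it in the higher direction (8.23% of 2126) and 28 in the lower (1.32%). Inflammatory products led the higher genes. Csf3, which encodes the granulocyte growth factor G-CSF, had 0 untreated UMIs and 117 CPM with TNF, at least 13.4-fold higher, and was found in 25.0% of treated cells, while the epithelial classes held at most 1.17 CPM with TNF. The collagenase gene Mmp13 was at 84.7 CPM (56.7 to 122) and 1262 CPM (1244 to 1280.1), and the stromelysin genes Mmp3 and Mmp10 were at 4869 and 10266 CPM and 1874 and 4091 CPM. Csf1, the macrophage growth factor gene, was at 123 and 632 CPM, Il11 at 73.0 and 352 CPM and Penk, which encodes proenkephalin, at 73.0 and 652 CPM. The enzymes that make prostaglandin E2 were higher, Ptges (ENSMUSG00000050737) at 187 CPM (144 to 239) and 608 CPM (595 to 621) and Ptgs2 at 458 and 1045 CPM, while its receptor gene Ptger4 was lower (64.2 and 2.26 CPM). In the 5 epithelial classes compared Ptges did not exceed 5.75 CPM, but it stood at 60.8 CPM in the treated Secretory-Reg4-Ang4 cells, a class with 0 untreated cells.

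More matrix and niche genes of Mesenchyme-Ptges were lower than higher, beside 11% lower and 13.5% higher over all its considered genes. Of 33 matrix and protease genes 18 were lower and 5 higher, with a median of -1.13, among them Col1a1 (2639 and 507 CPM), Col3a1 (5906 and 957 CPM), the elastin gene Eln (245 and 14.0 CPM) and Lum (750.3 and 64.6 CPM). Of 20 niche factors 10 were lower and 1 higher, including Igf1 (1924 and 219 CPM), the Wnt antagonist gene Dkk2 (90.5 and 6.09 CPM), Bmp5 (90.5 and 8.21 CPM) and Igfbp5, at 1223 CPM (1109 to 1346) and 2.87 CPM (2.07 to 3.88). Of these lower genes 1 of the 18 and 4 of the 10 were under 50 CPM with TNF. Rspo3, which sustains crypt stem cells, was level (78.8 and 63.0 CPM), and the BMP antagonist gene Grem1 stood at 1936 and 3049.9 CPM. The growth factor gene Nrg1 was lower (989.7 and 276 CPM) and Fgf7, which acts on epithelium, higher (128 and 313 CPM). Mitotic and S-phase genes were higher in 10 of 12 cases, all 10 from under 50 CPM untreated, cholesterol synthesis genes in 12 of 22 and glycolysis and hypoxia genes in 9 of 24, each with 0 lower. Of these 12 and 9 higher genes, 8 and 6 were under 50 CPM untreated.

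Since the untreated library held only 34 cells of this class, with a median of 5755 UMIs, the treated cells were also set against all 1430 untreated mesenchymal cells of 4 classes, a reference chosen by type and not by class. Of 3586 considered genes 256 were higher (7.14%) and 291 lower (8.11%). Of these 138 and 169 were also past 2-fold in the same direction within the class, 3 genes were higher here and lower within the class, and 0 the other way. The inflammatory genes stayed higher: Csf3 stood at 7.10 CPM in the 1430 cells (difference 3.86), Mmp13 at 79.8 CPM (3.97), Cxcl2 at 40.2 CPM (4.04), Ccl2 at 761 CPM (3.70), Penk at 14.8 CPM (5.37) and Ptges at 66.5 CPM (3.17). Igfbp5 (529 CPM, -7.10), the apolipoprotein gene Apoe (819.7 CPM, -5.76) and the eosinophil chemokine gene Ccl11 (398 CPM, -5.11) stayed lower, and matrix genes were lower in 16 of 33 cases and higher in 6.

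Other groups depended on the reference. Against all untreated mesenchyme, 0 of 12 mitotic genes, 0 of 19 MHC class I genes, 1 of 21 interferon-stimulated genes and 1 of 7 nitric oxide and oxidant enzymes were higher, compared with 10 of 12, 5 of 20, 7 of 19 and 4 of 7 within the class. Mki67 stood at 11.7 CPM in the 34 untreated cells of the class, 71.0 CPM in all untreated mesenchyme and 78.5 CPM with TNF, and Isg15 at 87.6, 346 and 301 CPM. Nfkbia stood at 475 CPM in all untreated mesenchyme, a difference of 0.66 from the treated class, under 2-fold. Cholesterol synthesis (9 of 21 higher) and glycolysis and hypoxia (12 of 24) kept a positive median, 0.88 and 1.00.

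**Figure D4:**
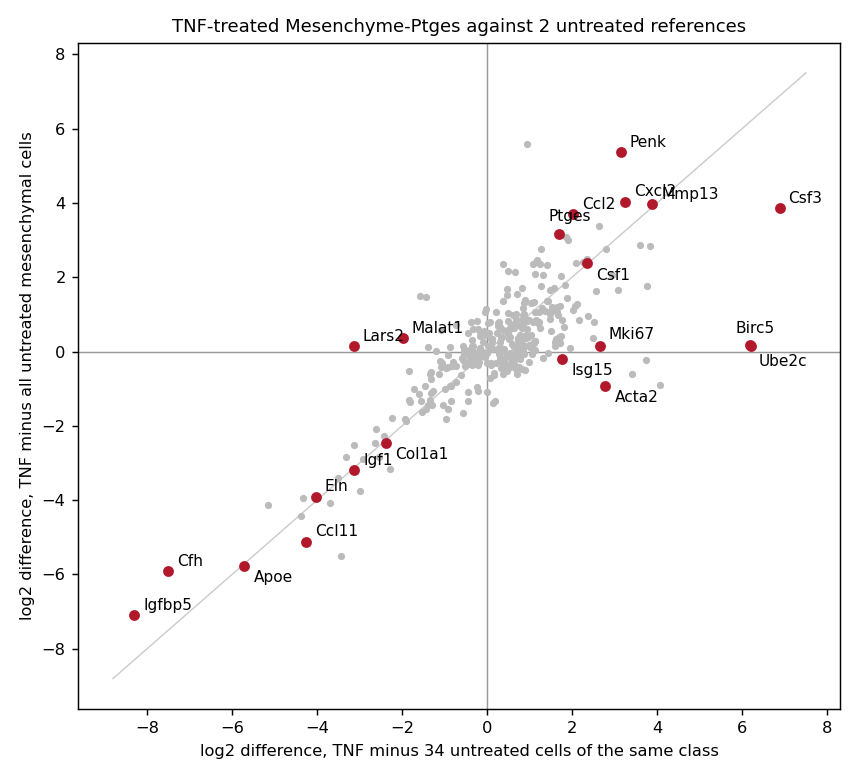
Each point is a gene of the named or listed genes, with its log2 difference between TNF-treated Mesenchyme-Ptges and the 34 untreated cells of the class (horizontal) or all 1430 untreated mesenchymal cells (vertical), the grey diagonal marking equal values. Csf3, Mmp13, Cxcl2 and Penk are high on both axes and Igfbp5, Apoe and Ccl11 low on both, while Birc5, Ube2c, Mki67 and Isg15 lie near 0 on the vertical axis alone.

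Some genes were past 2-fold in opposite directions in different classes, 41 of the 5583 genes considered in at least 1 class. Cp was higher in Progenitor.1, Progenitor.3 and the secretory class (2.11 and 51.1 CPM) and lower in Mesenchyme-Ptges, at 1083 CPM (976 to 1199) and 391 CPM (381 to 402), or -0.92 against all untreated mesenchyme. C3 ran the same way, higher in Progenitor.1 and lower in Mesenchyme-Ptges (1048 and 495 CPM), though its mesenchymal difference of -1.08 was -0.67 without the leading cell of each library and -0.42 against all untreated mesenchyme. Tmem176a and Tmem176b, a pair of neighbouring membrane protein genes, were higher in all 3 progenitor classes (105 and 344 CPM for Tmem176b in Progenitor.1) and lower in Mesenchyme-Ptges (1369 and 662 CPM). Slpi was higher in Progenitor.2 (36.9 and 647 CPM) and lower in Progenitor.3 (90.0 and 31.6 CPM), and Muc2 and Sval1 ran the same way (11.3 and 149.5 CPM and 919 and 362 CPM for Sval1). In Progenitor.3 the differences of Slpi, Muc2 and Sval1 were 0.40, 0.24 and -0.59 with thinned cells.

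The same comparison in Tnfr2-/- organoids was possible in 3 classes. There, 1.13% of considered genes were higher and 0.832% lower in Progenitor.1, 0.836% and 1.17% in Progenitor.2, and 4.53% and 3.2% in Mesenchyme-Ptges, all under the wildtype percentages except for the lower genes of Progenitor.1. Of the 11 shared genes 9 were considered in Tnfr2-/- Progenitor.1 and 8 in Progenitor.2, and 0 were past 2-fold in either. Their difference was positive for 7 of the 9 and 6 of the 8, with medians of 0.43 and 0.12. In Tnfr2-/- Mesenchyme-Ptges 1 of 7 considered was higher. The 11 genes were chosen for being past 2-fold in wildtype, so the sizes in the genotypes cannot be compared from them. Nfkbia was at 243 and 365 CPM in Progenitor.1 and 511 and 614 CPM in Progenitor.2, differences of 0.59 and 0.26. Cyba was at 422 and 740.0 CPM in Progenitor.1 (0.81). Untreated Cyba in Progenitor.1 thus stood at 422 CPM in Tnfr2-/- and 200.0 CPM in wildtype cells. These cells also differed in sex-linked UMIs: 93.8% of the wildtype and 0.309% of the Tnfr2-/- cells held Xist and no Y-linked UMI. The part of this in differences between the genotypes was not tested. Nos2 was higher in both genotypes, at 13.6 and 63.4 CPM in Tnfr2-/- Progenitor.1 and 120.1 and 296 CPM in Tnfr2-/- Progenitor.2. Isg15 and Cxcl10 were lower in Tnfr2-/- Progenitor.1 as well (-3.43 and -2.07), and Ptges was higher in Tnfr2-/- Mesenchyme-Ptges (2.49). Whether the TNF differences of the genotypes differ was not tested, since each rests on 1 library a side.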

How the data were processed

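Single-cell 3′ libraries of wildtype and Tnfr2-/- colonic organoids, untreated or with TNF, were read from the deposited matrix. The authors made UMI counts with Cell Ranger (5.0.0, build mm10, per the submitters' processing notes), removed cells under a depth limit and cells they took for epithelial-mesenchymal doublets, and clustered and named the cells with monocle3. The deposited counts are whole numbers over 30360 genes, unnormalized. The deposited size factors and plot coordinates were not used. Per the labels the wildtype libraries are 1 untreated and 1 TNF-treated sample. They held 87228093 and 56063515 UMIs over 2589 and 1469 cells, the shallowest cell had 894 UMIs, and the wildtype libraries shared 0 cell barcodes.

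UMIs were summed per class and library and scaled to CPM. Genes with at least 50 CPM in 1 library were considered, a pseudocount of 1 CPM was added, and "higher" or "lower" is a 2-fold difference. A gene was shared when past 2-fold one way in at least 4 of the 5 epithelial classes. It was class-specific when past 2-fold in a class and within 0.5 (log2) of 0 in every other class where it was considered, which had to be at least 3. Poisson intervals of levels, conditional binomial intervals of ratios and Clopper-Pearson intervals of shares are exact, at 95%, and cover counting error only. A count of 0 was given a floor of 3 counts per library and class. A share of 0 was given a limit of 3 cells of the total in place of an exact interval. With 1 library per group no test was made. Named genes were 32 fixed genes, the 8 leading shared genes of each direction, the 3 of each direction and class with the largest gap to the nearest other class, up to 5 with opposite directions in epithelium and Mesenchyme-Ptges, and up to 4 members per list and class. Mitochondrial and sex-linked genes were left out. Members, the 25 gene lists and the rules were chosen with earlier results of these data known.

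Alternatives were pseudocounts of 0.1 and 10 CPM, no level minimum and one of 200 CPM, TMM and median-of-ratios scaling (edgeR 4.0.16 in R 4.3.3), the mean over cells, cells thinned to 5000 UMIs, Xist-positive cells without Y-linked UMIs, and removal of doublets called by scrublet (scanpy 1.11.5), which marked 37 of 4058 wildtype cells (0.912%), 2 of them in the compared classes. Added after seeing the data were cells of at least 5000 UMIs and under 10% mitochondrial UMIs, all untreated mesenchyme as reference, and leaving out the cell with most UMIs of a gene in each library. The counting steps were tested on simulated data. Python 3.11.15, numpy 2.4.6, pandas 2.3.3, scipy 1.17.1 and matplotlib 3.10.9 were used.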

Additional observations from a re-analysis of the deposited data

Results flagged for a closer look

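Of the named genes, 19 were past 2-fold in opposite directions in different classes. With 1 library a side these differences between classes were not tested. Each gap below is the log2 difference in the class where the gene was higher minus that in the class where it was lower.

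Of these genes, 5 were higher in Mesenchyme-Ptges and lower in a progenitor class. The gap was 5.43 for Ddah1, which degrades an inhibitor of nitric oxide synthases (3.76 against -1.67 in Progenitor.2), and 4.21 for Cxcl10 (2.94 against -1.27 in Progenitor.1). It was 3.83 for Isg15 (1.77 against -2.06 in Progenitor.1), whose mesenchymal difference was -0.20 against all untreated mesenchyme, 3.52 for the chaperone gene Hsp90aa1 (1.88 against -1.63 in Progenitor.2) and 2.61 for the noncoding gene 4930523C07Rik (1.58 against -1.02 in Progenitor.2).

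A further 8 were higher in an epithelial class and lower in Mesenchyme-Ptges. The gap was 5.53 for Cp (secretory class, 4.07 against -1.47), 4.85 for Tmem176b (Progenitor.2, 3.80 against -1.05), 4.51 for Tmem176a (Progenitor.2, 2.61 against -1.90) and 3.02 for the myelin protein gene Pmp22 (secretory class, 1.68 against -1.34). It was 4.79 for Lars2 (Progenitor.3, 1.65 against -3.14), 4.37 for Gm26917 (Progenitor.3, 2.79 against -1.58), 3.19 for Neat1 (Progenitor.1, 1.75 against -1.44) and 2.99 for AY036118 (Progenitor.3, 1.91 against -1.08). Lars2, Gm26917, Neat1 and AY036118 were not lower against all untreated mesenchyme, and Cp was at -0.92, under 2-fold.

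Within the epithelium, 3 genes were higher in Progenitor.2 and lower in Progenitor.3, with gaps of 6.39 for Muc2, 5.58 for Slpi and 4.95 for Sval1. The gap was 4.38 for the scaffold gene Ahnak (enteroendocrine cells 2.98, Progenitor.3 -1.40), 2.57 for Reg4 (enteroendocrine cells 1.22, secretory class -1.35) and 2.38 for Mfsd4a (secretory class 1.09, Progenitor.3 -1.29). In Progenitor.3 these opposite directions were lost with other weights of the cells: with the mean over cells and with thinned cells the differences were 0.55 and 0.24 for Muc2, 1.27 and 0.40 for Slpi, -0.76 and -0.59 for Sval1, 1.18 and 1.65 for Ahnak, and 0.13 and -0.24 for Mfsd4a. With thinned cells Ahnak was at 0.093 in enteroendocrine cells. In Progenitor.2, 4930523C07Rik was at -0.28 with the mean over cells and -0.68 with thinned cells.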

How the results depend on the processing

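Over all alternatives, 173 counts stayed within 1.5 times the reported count and 82 did not. Of the log2 differences of named genes, 4243 moved by less than their counting error, 734 moved further and 15 that were past 2-fold changed sign. Sign changes were counted apart only for genes past 2-fold as reported, and any others are among the 4243 and the 734. The level minimum does not enter a log2 difference. The setting without it and that of 200 CPM therefore each added 468 unmoved values by construction. The causes were not tested except where the alternative considers fewer or more genes. With no level minimum more genes were considered, and the counts of higher and lower genes were 278 and 161 in Progenitor.1, 927 and 536 in Progenitor.2, 1074 and 641 in Progenitor.3, 519 and 221 in the secretory class, 2234 and 1424 in enteroendocrine cells and 2621 and 2047 in Mesenchyme-Ptges. Shared genes were then 90 higher and 14 lower, and class-specific genes 53 higher and 34 lower in Progenitor.2, 470 and 233 in Mesenchyme-Ptges and 507 in the other 4 classes together. Genes past 2-fold the same way in both genotypes were 50 higher and 45 lower in Progenitor.1, 82 and 60 in Progenitor.2 and 492 and 282 in Mesenchyme-Ptges, against 7 and 7, 13 and 16, and 39 and 45 as reported.

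With a minimum of 200 CPM fewer were considered, and the counts were 15 and 3 in Progenitor.1, 57 and 32 in Progenitor.2, 19 and 5 in Progenitor.3, 24 and 7 in the secretory class, 18 and 10 in enteroendocrine cells and 142 and 130 in Mesenchyme-Ptges. There 4 genes were shared and higher, class-specific genes were 4 and 3 in Progenitor.2, 58 and 9 in Mesenchyme-Ptges and 2 elsewhere, and genes past 2-fold in both genotypes were 2 and 1 in Progenitor.1, 6 and 4 in Progenitor.2 and 11 and 14 in Mesenchyme-Ptges. A pseudocount of 10 CPM left 4 class-specific lower genes in Progenitor.2 and 5 in the other 4 classes. TMM and median-of-ratios scaling each gave 20 higher genes in both genotypes in Progenitor.2.

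The mean over cells gave 138 higher and 80 lower genes in enteroendocrine cells, 1106 and 644 in Mesenchyme-Ptges, 6 and 5 class-specific genes in Progenitor.2, 498 and 47 in Mesenchyme-Ptges, 14 elsewhere, and 59 and 70 in both genotypes in Mesenchyme-Ptges. Thinned cells gave 204 lower genes in Progenitor.2, 45 in Progenitor.3 and 52 in the secretory class, 385 higher and 394 lower in enteroendocrine cells, 1055 and 821 in Mesenchyme-Ptges, 9 and 4 class-specific in Progenitor.2, 286 higher in Mesenchyme-Ptges, 69 elsewhere, and 85 and 78 in both genotypes in Mesenchyme-Ptges. Cells of at least 5000 UMIs and under 10% mitochondrial UMIs gave 226 higher genes in Progenitor.2. All untreated mesenchyme as reference gave 256 higher genes in Mesenchyme-Ptges, 24 class-specific and higher, and 91 higher and 129 lower in both genotypes.

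In Progenitor.3 the mean over cells turned Muc2 to 0.55, Slpi to 1.27, Mfsd4a to 0.13 and Ahnak to 1.18, and thinned cells turned Muc2 to 0.24, S100a13 to 0.0063, Cda to 0.16, Slpi to 0.40 and Ahnak to 1.65. Thinned cells turned Cxcl1 in Progenitor.2 to -0.22. Against all untreated mesenchyme, Isg15 turned to -0.20, Neat1 to 1.47, Gm26917 to 1.49, AY036118 to 0.59 and Lars2 to 0.15. The 11 shared genes kept that call in 11 cases with a pseudocount of 0.1 CPM, in 6 with thinned cells (not Csad, Cyr61, Ecscr, Edn1 and Sdhaf1), in 8 with the mean over cells and in 10 without doublets.

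Without the leading cell of each library, Zfp593, 4930523C07Rik and Car1 in Progenitor.2, Muc2, Cda, Slpi and Areg in Progenitor.3, Siva1 and Chgb in the secretory class, Mki67, Gm26917, Tff3, Cd177 and Pigr in enteroendocrine cells, and AY036118, Tmem176b and C3 in Mesenchyme-Ptges were under 2-fold. No paired analysis was possible because each group is 1 library. The filter on cell quality was not run for Mesenchyme-Ptges, where 6 untreated cells passed, nor the restriction to Xist-positive cells for Progenitor.3 and enteroendocrine cells, where 19 untreated and 14 treated cells were left. With 342542 untreated UMIs in Mesenchyme-Ptges and 655879 in enteroendocrine cells, the floor of 3 counts was 8.76 and 4.57 CPM, so lower levels could not be told from 0 there.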

Other observations

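The classes outside the comparison were unevenly spread over the wildtype libraries. Absorptive cells numbered 319 untreated and 19 treated, Mesenchyme-Ifitm1 cells 892 and 0, Mesenchyme-generic cells 393 and 1, Mesenchyme-proliferative cells 111 and 1, and Secretory-Reg4-Ang4 cells 0 and 246. They were left out because 1 library held under 20 cells.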
